A study of Rattus norvegicus with 9 samples.

Results

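Axon guidance ligands and receptors were examined in the brain of male Sprague-Dawley rats 14 days after cerebral ischemia/reperfusion. The genes were chosen by family name among the gene names of the array files: semaphorins of classes 3 to 7, plexins, neuropilins, ephrins, Eph receptors, Slits, Robos, netrins, Dcc, and the Unc5 receptors. For genes with more than 1 probe the brightest over the 9 arrays was taken. The files hold 60 such genes, on 76 of 30367 probes, of 19293 gene symbols in all. Of the 60 genes, 32 encode ligands and 28 encode receptors. Of these, 56 were detected (well above background on each of the 3 arrays of some group) and were tested, among 23747 probes tested in all.

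The series has 3 groups of 3 arrays. Sham rats were operated on without introduction of the filament and received the solvent. I/R rats underwent 2 h of middle cerebral artery occlusion (MCAO) by an intraluminal nylon suture, followed by reperfusion until day 14. DHI rats underwent the same occlusion and reperfusion and received Danhong injection, a Chinese medicine made from the roots of Salvia miltiorrhiza and the flowers of Carthamus tinctorius, through the tail vein every day until day 14. RNA came from the infarcted hemisphere, so each array averages over every cell type of that tissue. All animals were males of 1 strain, and their age is not given in the sources used here. The question is how the guidance genes differed between injured and sham brains, and between injured brains with and without DHI.

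Axon guidance genes encode the signals that steer growing axons and the receptors with which growth cones read them. Semaphorins signal mostly through plexins, with neuropilins as co-receptors for most secreted class 3 semaphorins. Ephrins are membrane-bound and signal on contact through Eph receptors, Slits through Robos, and netrins through Dcc and Unc5 receptors. In the adult brain many of them are expressed in neurons, glia, and vessels, where they are known for roles in synapses, glial scars, and vessel growth, and several are known inhibitors of axon regrowth after injury.

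A level below is the log2 intensity of a probe after subtraction of the 75th percentile of its array, so that 0 is a bright spot and most genes are negative. Levels of different genes come from different probes and were not compared. Values are always given in the order of replicates 1, 2, and 3. A gene was called a DEG where the fold change (FC) exceeded 1.5 and the unadjusted p of limma was under 0.05, the thresholds of the study's methods, and calls with a Benjamini-Hochberg adjusted p under 0.05 over all 23747 probes are counted beside them.

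Over the guidance genes that differed between I/R and Sham, 2 arrays stood apart from their groups. DHI 1 resembled the I/R arrays, and I/R 3 was the I/R array nearest to Sham for 29 of 33 genes. Slide 1 carried all Sham and I/R arrays and slide 2 all DHI arrays, so that slide and DHI cannot be told apart. Counts without DHI 1 and without I/R 3 are therefore given with each comparison. The share of probes detected was 75.2% to 78.9% an array, and none was saturated.

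In I/R versus Sham, 33 of the 56 genes tested were DEGs, with 22 lower and 11 higher in I/R. Among all probes tested, 43.1% were DEGs, 22.3% lower and 20.8% higher. The median log2 fold change was -0.50 over the guidance genes and -0.10 over all probes. Receptors were mostly lower: 13 of 25 tested fell and 4 rose (median -0.92), whereas of 31 ligands 9 fell and 7 rose (median -0.30). Between Sham and I/R, the 3 arrays of each group did not overlap for 41 of the 56 genes, against 62.5% of all probes. Without I/R 3 there were 37 DEGs and without DHI 1 there were 34, beside 11539 and 10915 of the 23747 probes. Without scaling of the arrays every log2 fold change is 0.20 higher (median of all probes 0.10), and 18 genes were lower and 12 higher.

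The adjusted p of these 33 DEGs ran only from 0.0396 to 0.0984 in limma. It was under 0.05 for 21 of them (15 lower, 6 higher), against 31.5% of all probes at the same FC (15.1% lower, 16.4% higher). These 21 sit just under the threshold. None passed when any single Sham array was left out, or I/R 1, or I/R 2, or DHI 3, whereas 32 passed without I/R 3, and 34 passed without DHI 1. The number of DEGs by unadjusted p was 21 without I/R 1 and 21 without I/R 2, beside 7517 and 7971 of all probes.

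**Figure D1:**
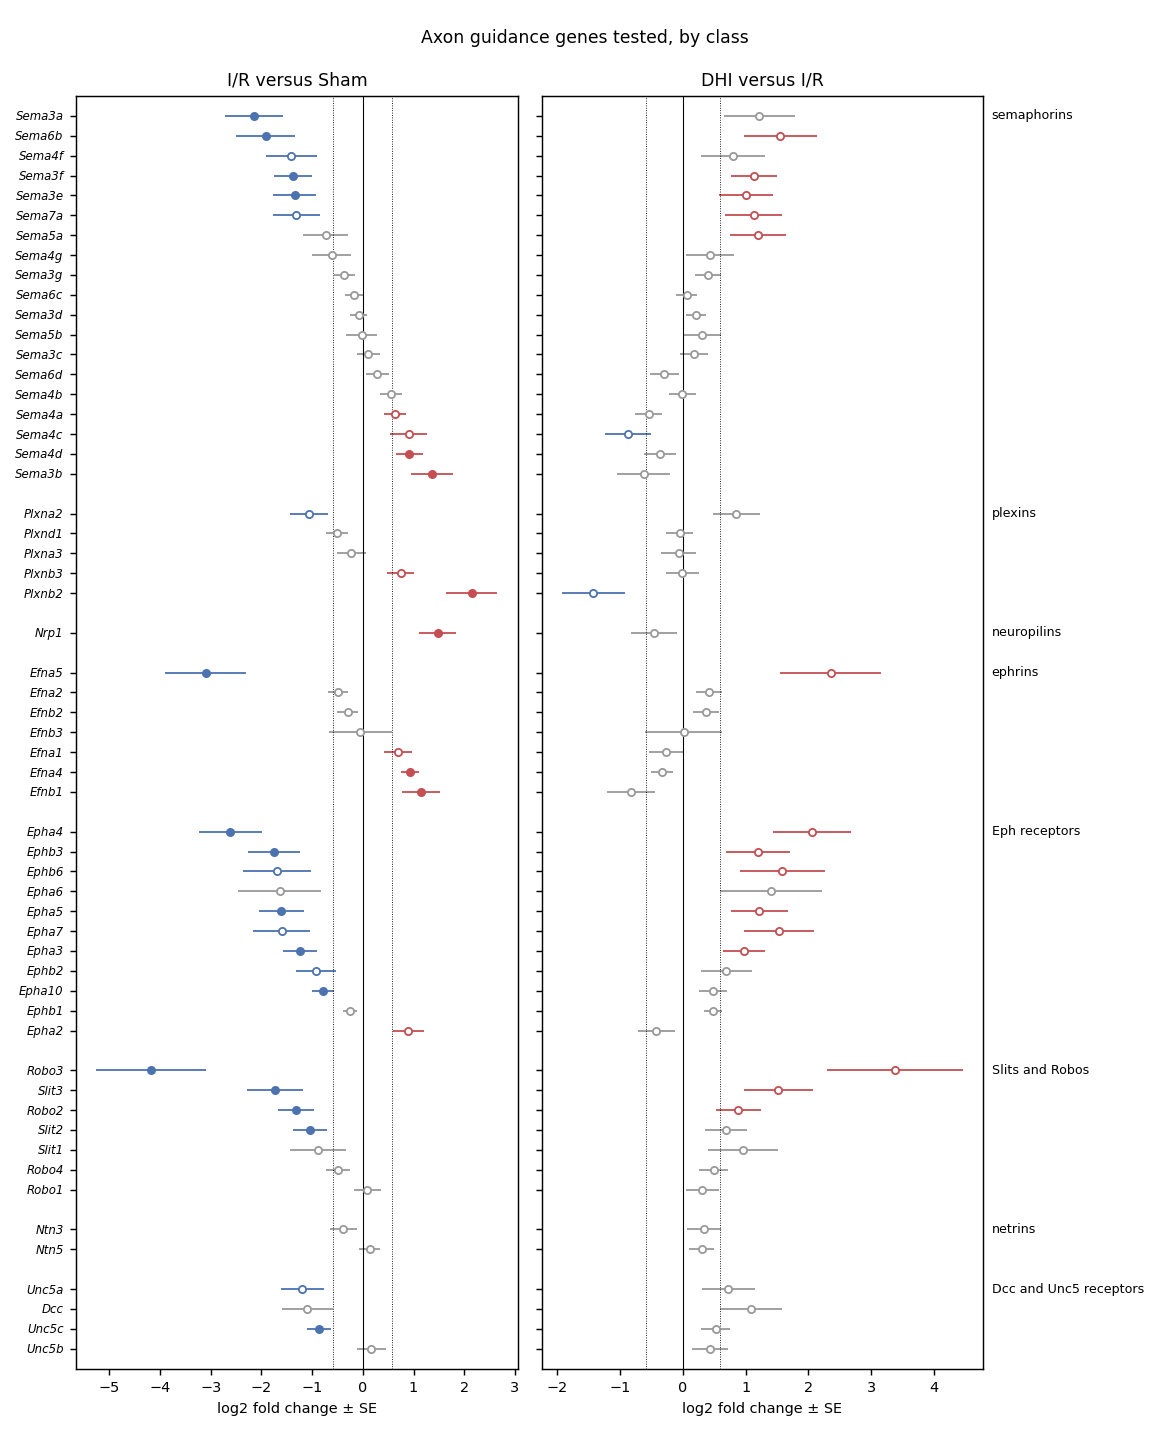
Log2 fold change with its standard error for the 56 axon guidance genes tested, grouped by class, in I/R versus Sham (left) and DHI versus I/R (right), with different horizontal scales. Red points are DEGs that were higher in the first group named, blue points are DEGs that were lower, grey points are neither, filled points also passed the adjusted p, and dotted lines mark an FC of 1.5. On the left 22 genes are blue and 11 red, and on the right 15 are red and 2 blue, or 3 red and 8 blue when the arrays are not scaled.

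Markers of several cell types moved together with these genes. All 12 neuronal markers were lower in I/R (median log2 fold change -2.64, 9 with the adjusted p), and the sum of their intensities, each as a multiple of the array's 75th percentile, was 86.2 to 96.1 in Sham, 7.95 to 42.3 in I/R, and 27.3 to 94.6 in DHI. Of 13 markers of microglia and macrophages 12 were higher in I/R, with sums of 22.0 to 27.5, 170 to 436, and 29.7 to 244 in the same order. All 8 reactive astrocyte markers and all 8 markers of fibroblasts and meninges were higher as well, with sums that went from 2.39 to 3.16 in Sham to 28.7 to 42.7 in I/R, and from 8.70 to 15.6 in Sham to 129 to 200 in I/R. All markers called in these last 3 lists passed the adjusted p. The 4 red blood cell markers were all lower in I/R, none with the adjusted p, with arrays apart for all 4 and sums of 4.62 to 38.6 in Sham, 2.82 to 4.12 in I/R, and 9.37 to 49.97 in DHI. Of 6 T cell markers tested 4 were higher, all 4 with the adjusted p, with sums of 0.175 to 0.206 in Sham, 0.529 to 0.941 in I/R, and 0.200 to 0.681 in DHI. No marker of these 6 lists was below background on every array. In the other lists, 5 of 9 astrocyte markers (3 higher, 2 lower), 3 of 9 endothelial, 2 of 7 oligodendrocyte precursor, 1 of 9 oligodendrocyte, and 1 of 7 pericyte and smooth muscle markers were DEGs. Over all probes the share was 43.1%. In bulk tissue, fewer cells of a type and less RNA per cell cannot be told apart, and the part of the cell types in the changes of the guidance genes was not tested.

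Markers of particular brain regions were counted in the same way, and they varied widely within groups. The 9 markers of striatal projection neurons were all negative in I/R versus Sham. Of them 3 (33.3%) were DEGs (1 with the adjusted p), against 43.1% of all probes. These 9 markers summed to 11.5 to 54.8 in Sham, 3.07 to 6.71 in I/R, and 4.57 to 53.4 in DHI. Their sum was far higher on Sham 1 and DHI 3 than on any other array. The 7 choroid plexus markers tested were all positive in I/R versus Sham, and again in DHI versus Sham, with 3 DEGs each time (1 and 0 with the adjusted p). The share of 42.9% each time stands beside 43.1% and 3.58% of all probes. The choroid plexus markers summed to 0.487 to 1.15 in Sham, 1.38 to 93.9 in I/R, and 7.53 to 138 in DHI. The sums on I/R 3, DHI 1, and DHI 3 were far above the rest, and were mostly the signal of Ttr. Its level was 6.53, 7.05, and 6.20 on these arrays, and at most 2.88 on any other. The median log2 difference of the 7 markers from the Sham mean was alike on I/R 2 (3.02) and I/R 3 (2.95). The part of these regions in the differences and in the spread of the guidance genes was not tested.

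Eph receptors are tyrosine kinases that bind ephrins on neighbouring cells. Of 11 tested, 8 were lower in I/R and 1 higher, with a class median of -1.60, and 5 of the 8 passed the adjusted p. Over all probes 22.3% were lower and 20.8% higher. Epha4, a receptor for both classes of ephrins and a known inhibitor of axon growth, had levels of 1.90, 2.51, and 2.25 in Sham, -1.30, -0.83, and 0.96 in I/R, and 0.71, 2.36, and 1.94 in DHI. Every I/R array lay below every Sham array, and I/R 3 and DHI 1 were close to each other between the rest. Epha4 fell by 2.61 ± 0.62 (SE) on the log2 scale in I/R (adjusted p = 0.0396), the largest change of its class, and this call held under each of the 20 other settings tried.

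Ephb3, a receptor for B-type ephrins, had levels of 0.70, 1.23, and 0.81 in Sham, -1.39, -0.92, and -0.22 in I/R, and -0.74, 1.31, and 0.50 in DHI. The Sham and I/R arrays were apart, DHI 1 lay within the I/R range, and Ephb3 fell by 1.76 ± 0.51 in I/R. Ephb6, an Eph receptor without kinase activity, had levels of 1.10, 2.10, and 2.15 in Sham, -0.49, -0.08, and 0.86 in I/R, and 0.15, 2.62, and 2.26 in DHI. Its lowest Sham array and highest I/R array were close together, and the fall of 1.69 ± 0.67 did not pass the adjusted p (0.0787).

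Epha5, a receptor for A-type ephrins that is found mainly in the nervous system, had levels of 1.08, 0.51, and 0.55 in Sham, -1.52, -1.24, and 0.07 in I/R, and -0.28, 0.77, and 0.48 in DHI. I/R 3 was again the nearest to Sham, and Epha5 fell by 1.61 ± 0.45 in I/R (adjusted p = 0.0405). Epha3, another receptor for A-type ephrins, had levels of -3.48, -3.77, and -4.05 in Sham, -5.54, -4.76, and -4.73 in I/R, and -4.64, -3.55, and -3.94 in DHI. It fell by 1.24 ± 0.34 in I/R (adjusted p = 0.0403), and here all 3 DHI arrays were above all 3 I/R arrays.

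Among the other Eph receptors, Epha7 (-1.60 ± 0.56), Ephb2 (-0.92 ± 0.40), and Epha10 (-0.78 ± 0.22) were lower in I/R. Ephb2 had the weakest of these calls, with overlapping arrays and an adjusted p of 0.0984, and it was lost under 11 of 20 other settings. Epha2, known from epithelia and vessels, was the only Eph receptor tested that was higher in I/R (0.90 ± 0.30, adjusted p = 0.0518). Epha6 had a log2 fold change of -1.64 ± 0.81 and was no DEG, since I/R 3 (-3.28) was above all Sham arrays while I/R 1 (-6.95) and I/R 2 (-5.90) were below them. Ephb1 was no DEG either (-0.25 ± 0.14). Epha1 and Epha8 were not well above background on any array and were not tested.

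The ephrins, their ligands, were divided. Of 7 tested, 3 rose in I/R, 1 fell, and 3 were no DEGs, while 20.8% of all probes rose and 22.3% fell. Efna5, a lipid-anchored ephrin known from topographic maps, had levels of -7.12, -6.08, and -6.43 in Sham, -9.75, -9.61, and -9.57 in I/R, and -9.34, -5.71, and -6.81 in DHI. It was well above background on all 3 Sham arrays, on none of the I/R arrays, and on DHI 2 and DHI 3, so that only bounds can be given: Efna5 was at least 4.01-fold lower in I/R than in Sham. This gene entered the tests only through the Sham arrays, where it was high, so its call is no support for a change. It was the only guidance gene tested that was not well above background on all 9 arrays, and over probes that were, 32 guidance genes were DEGs in I/R versus Sham (21 lower, 11 higher), of which 21 passed the adjusted p (14 lower, 7 higher), and 16 in DHI versus I/R (14 higher, 2 lower). With normexp background correction the call of Efna5 was lost and the fitted log2 fold change was -0.64.

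Efnb1, a transmembrane ephrin, had levels of -3.87, -4.26, and -4.73 in Sham, -3.14, -2.99, and -3.31 in I/R, and -3.12, -4.42, and -4.38 in DHI. The I/R arrays and DHI 1 were all above the Sham arrays, while DHI 2 and DHI 3 were within the Sham range, and Efnb1 rose by 1.14 ± 0.38 in I/R (adjusted p = 0.04997). Efna4, a ligand of several EphA receptors, had levels of -4.61, -4.77, and -4.67 in Sham, -3.80, -3.58, and -3.88 in I/R, and -3.84, -4.34, and -4.07 in DHI. All I/R and all DHI arrays exceeded the Sham arrays, and the rise in I/R was 0.93 ± 0.17 (adjusted p = 0.0396).

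Efna1, an ephrin known as inducible by tumor necrosis factor in endothelial cells, had levels of -1.16, -0.81, and -0.74 in Sham, 0.06, -0.08, and -0.61 in I/R, and -0.02, -0.85, and -0.54 in DHI. The rise of 0.70 ± 0.27 did not pass the adjusted p (0.0738). Efnb3 varied widely within every group, from 0.79 to 2.15 in Sham and from 0.15 to 2.23 in I/R, and had a log2 fold change of -0.05 ± 0.61. Efnb2 (-0.30 ± 0.21) and Efna2 (-0.49 ± 0.20) were no DEGs.

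**Figure D2:**
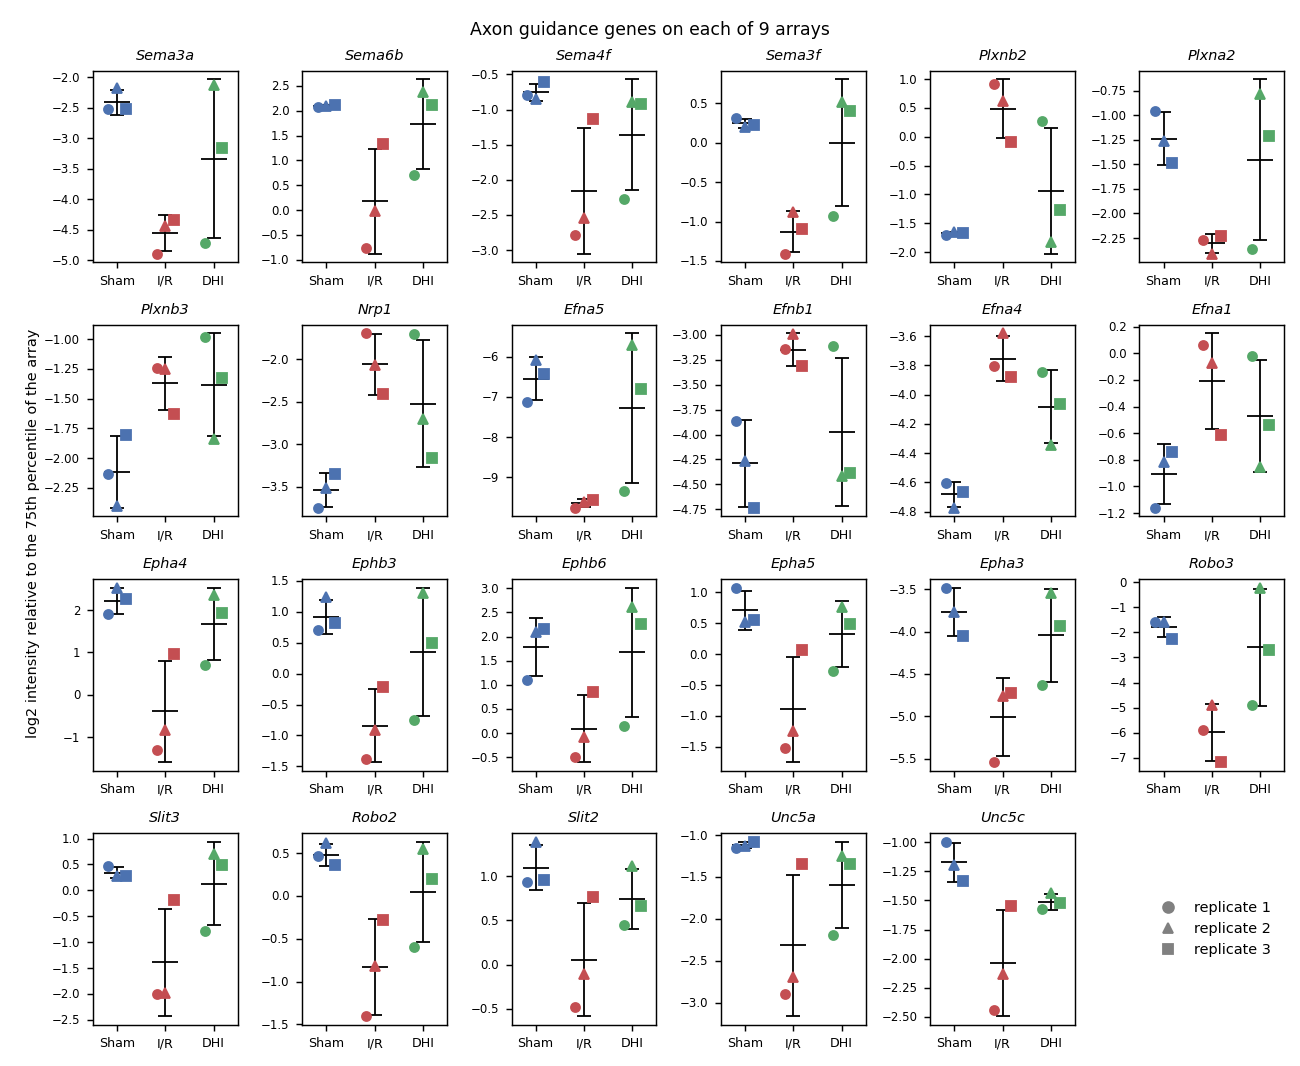
Log2 level (intensity over the 75th percentile of its array) for 23 axon guidance genes, 1 panel a gene, each with its own vertical scale, on the 3 arrays of Sham (blue), I/R (red), and DHI (green). Symbols mark the replicate number, horizontal lines the group mean, and bars the SD. For Epha4, Slit3, and Sema6b, DHI 1 (green circle) and I/R 3 (red square) lie between the other arrays of their groups and those of the opposite group, and for Efna5 the I/R arrays are not above background.

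All 4 DEGs among the Slits and Robos were lower in I/R, of 7 tested, and all 4 passed the adjusted p. Over all probes 22.3% were lower, and 15.1% with the adjusted p. Robo3, a divergent Robo receptor known for its role in the midline crossing of commissural axons, had levels of -1.58, -1.57, and -2.26 in Sham, -5.90, -4.89, and -7.16 in I/R, and -4.88, -0.22, and -2.71 in DHI. It showed the largest change of all guidance genes tested, a fall of 4.18 ± 1.08 in I/R (adjusted p = 0.0396). For this gene I/R 3 was the I/R array farthest from Sham, unlike for most others.

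The array carries 2 probes for Robo3, and their sequences are shown because they gave changes of different size. Both are 60 bases long, the first 30 bases are printed from the 5′ end, and positions are those of the whole probe on the rn4 build, as the array files give them, at chr8:38669561-38669620 for the brighter probe and chr8:38670621-38670680 for the dimmer one, both on the minus strand. No annotation of exons was used.
Robo3, brighter probe: catccctttatgactgagacatgtctgtac
Robo3, dimmer probe: gattcacgtgtctggtcaacattgatattg
The dimmer probe had levels of -7.44, -7.57, and -7.53 in Sham, -8.36, -8.63, and -8.69 in I/R, and -8.37, -6.75, and -7.47 in DHI. It fell by 1.05 ± 0.36 in I/R (adjusted p = 0.0556), the same direction with a smaller fitted size. Its I/R levels were close to the background, so the size of this fall is uncertain and may be too small.

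Slit3, a secreted Robo ligand, had levels of 0.46, 0.28, and 0.27 in Sham, -2.0, -1.98, and -0.19 in I/R, and -0.79, 0.70, and 0.49 in DHI. I/R 1 and I/R 2 were far below Sham and I/R 3 was near it, and Slit3 fell by 1.73 ± 0.55 (adjusted p = 0.0465). Robo2, a Slit receptor of many projection neurons, had levels of 0.46, 0.62, and 0.36 in Sham, -1.40, -0.82, and -0.28 in I/R, and -0.59, 0.55, and 0.19 in DHI. It fell by 1.31 ± 0.35 in I/R (adjusted p = 0.0403), with no overlap between the arrays of Sham and I/R.

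Slit2, the Slit known best as a repellent of growing axons, had levels of 0.94, 1.39, and 0.96 in Sham, -0.48, -0.11, and 0.76 in I/R, and 0.45, 1.11, and 0.67 in DHI. I/R 3 missed the lowest Sham array only narrowly, and the fall was 1.04 ± 0.33 (adjusted p = 0.0476). Slit1 had a log2 fold change of -0.89 ± 0.55 and was no DEG, with I/R 3 (1.72) above every Sham array. Robo4, the Robo of blood vessels (-0.49 ± 0.23), and Robo1 (0.09 ± 0.26) were no DEGs.

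The semaphorins went both ways. Of 19 tested, 6 were lower in I/R, 4 were higher, and 9 were no DEGs, with a class median of -0.17. Together 52.6% were DEGs, beside 43.1% of all probes (22.3% lower and 20.8% higher). Sema3a, a secreted repellent that collapses growth cones, had levels of -2.53, -2.17, and -2.52 in Sham, -4.89, -4.43, and -4.33 in I/R, and -4.71, -2.13, and -3.16 in DHI. The 3 I/R arrays were close together and far below Sham, DHI 1 was among them, and Sema3a fell by 2.15 ± 0.56 (adjusted p = 0.0399).

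Sema6b, a transmembrane semaphorin, had levels of 2.08, 2.09, and 2.11 in Sham, -0.76, -0.02, and 1.32 in I/R, and 0.70, 2.37, and 2.12 in DHI. The Sham arrays hardly differed whereas the I/R arrays were spread widely below them, and Sema6b fell by 1.92 ± 0.58 (adjusted p = 0.0428). Sema3f, a secreted semaphorin that acts through neuropilin-2, had levels of 0.32, 0.20, and 0.22 in Sham, -1.41, -0.88, and -1.10 in I/R, and -0.93, 0.52, and 0.40 in DHI. It fell by 1.38 ± 0.37 (adjusted p = 0.0400), and DHI 1 was the single DHI array within the I/R range.

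Sema4f, a class 4 transmembrane semaphorin, had levels of -0.79, -0.84, and -0.61 in Sham, -2.79, -2.55, and -1.14 in I/R, and -2.27, -0.89, and -0.92 in DHI. Its fall of 1.41 ± 0.50 did not pass the adjusted p (0.0609). Sema3e, a ligand of plexin D1 (-1.35 ± 0.43), and Sema7a, a lipid-anchored semaphorin (-1.31 ± 0.46), were lower as well, the former also by adjusted p (0.0457).

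The 4 semaphorins that rose in I/R were Sema3b (1.36 ± 0.42), Sema4d (0.92 ± 0.26), Sema4c (0.90 ± 0.37), and Sema4a (0.63 ± 0.22). Sema4d, which is known to signal through plexins of the B type and to act on immune cells, and Sema3b, a secreted semaphorin, passed the adjusted p (0.0407 and 0.0436). Sema4c, a ligand of plexin-B2, did not, and its call was lost under 9 of 20 other settings. The semaphorins that were no DEGs had log2 fold changes from -0.73 (Sema5a) to 0.56 (Sema4b).

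For Sema4b, a class 4 transmembrane semaphorin, the 2 probes went in opposite directions, and their first 30 bases are shown for that reason. On rn4 they lie on the plus strand at chr1:136031180-136031241 (brighter probe) and chr1:136023636-136023695 (dimmer probe).
Sema4b, brighter probe: aagggatactgacactgcccatcacgagga
Sema4b, dimmer probe: tcattgaggagctgcaggtcttccctcaag
The brighter probe had levels of -1.05, -1.23, and -0.65 in Sham and of -0.26, -0.28, and -0.73 in I/R, and its log2 fold change of 0.56 ± 0.22 was below an FC of 1.5. The dimmer probe had levels of -4.31, -3.48, and -3.80 in Sham and of -5.89, -5.37, and -5.88 in I/R, and fell by 1.85 ± 0.57 (adjusted p = 0.0443). The gene therefore has no single direction on this array. Its counting as no DEG follows from the rule of the brighter probe. Probes of Sema3g (-0.37 and 0.41) and Sema6d (0.29 and -0.08) also differed in sign, with no DEG among them.

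Among the receptors of semaphorins, Plxnb2 rose most. Plxnb2, the plexin-B2 receptor of class 4 semaphorins, had levels of -1.69, -1.64, and -1.67 in Sham, 0.92, 0.61, and -0.08 in I/R, and 0.28, -1.82, and -1.27 in DHI. All I/R arrays, DHI 1, and DHI 3 were above every Sham array, and DHI 2 was below them. Plxnb2 rose by 2.15 ± 0.50 in I/R (adjusted p = 0.0396), with the call kept under each of the 20 other settings. Nrp1, the neuropilin that binds Sema3a and vascular endothelial growth factor, had levels of -3.75, -3.52, and -3.35 in Sham, -1.70, -2.07, and -2.42 in I/R, and -1.70, -2.71, and -3.16 in DHI. It rose by 1.47 ± 0.37 in I/R (adjusted p = 0.0396), and all 3 DHI arrays were above Sham too.

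Plxna2, a receptor of class 6 semaphorins and, with neuropilins, of class 3 semaphorins, had levels of -0.96, -1.26, and -1.49 in Sham, -2.27, -2.41, and -2.23 in I/R, and -2.37, -0.78, and -1.22 in DHI. It fell by 1.07 ± 0.37 (adjusted p = 0.0575), with DHI 1 among the I/R arrays. Plxnb3, a plexin of oligodendrocytes and neurons, had levels of -2.14, -2.41, and -1.80 in Sham, -1.24, -1.25, and -1.63 in I/R, and -0.98, -1.84, and -1.33 in DHI. It rose by 0.74 ± 0.26 (adjusted p = 0.0582). Plxna3 (-0.22 ± 0.28) and Plxnd1 (-0.51 ± 0.22) were no DEGs. Nrp2, the other neuropilin, was above background on 1, 2, and 1 arrays of Sham, I/R, and DHI and was not tested.

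No netrin was a DEG in I/R versus Sham. Ntn3 (-0.39 ± 0.27) and Ntn5 (0.13 ± 0.20) were tested, and Ntn1, the netrin for which the family is known, was above background on only 2 Sham, 1 I/R, and 2 DHI arrays and was not tested. Of the 4 receptors, 2 were lower in I/R, against 22.3% of all probes. Unc5a, a repulsive netrin receptor, had levels of -1.15, -1.13, and -1.08 in Sham, -2.90, -2.70, and -1.35 in I/R, and -2.19, -1.25, and -1.35 in DHI. It fell by 1.20 ± 0.42 (adjusted p = 0.0587).

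Unc5c, a receptor of the same kind, had levels of -1.0, -1.19, and -1.33 in Sham, -2.44, -2.13, and -1.55 in I/R, and -1.58, -1.44, and -1.53 in DHI. Both I/R and DHI arrays were below Sham throughout, and the fall in I/R was 0.86 ± 0.23 (adjusted p = 0.0400). Dcc, the attractive netrin receptor, had a log2 fold change of -1.09 ± 0.50 with arrays that did not overlap. It missed the threshold of a DEG (unadjusted p of limma 0.0603, adjusted p = 0.113). Unc5b, known from vessels, was no DEG (0.17 ± 0.29).

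Comparison of DHI with I/R gave 17 DEGs among the 56 genes, 15 higher and 2 lower in DHI, against 21.9% of all probes (11.5% higher and 10.5% lower). The median log2 fold change was 0.46 over the guidance genes and 0.10 over all probes. This split depends on the scaling of the arrays: without it every log2 fold change of this comparison is 0.46 lower, the median of all probes is -0.36, and 11 genes are DEGs, 3 higher and 8 lower. With limma 0 genes passed the adjusted p, which was 0.196 for each of the 17, against 0.00421% of all probes, while 19 genes had an unadjusted p under 0.05. The arrays of the groups were apart for 4 of the 56 genes, against 9.54% of all probes.

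The count rested on single arrays. It was 31 without DHI 1, of which 27 also passed the adjusted p, and 25 without I/R 3. Leaving out DHI 2 gave 2 DEGs, DHI 3 gave 3, I/R 1 or I/R 2 gave 5 each, and a Sham array gave 11 to 12. A fit of only these groups gave 5 DEGs, and the methods' t-test gave 0. The count over all probes moved as well. From 5211 in the main fit it became 10737 without DHI 1 (9527 with the adjusted p) and 7719 without I/R 3. It was 939 without DHI 2, 1127 without DHI 3, 1381 without I/R 1, and 1659 without I/R 2. Without a Sham array it was 3803 to 3922, and it was 2149 with only these groups and 469 with the t-test. The comparison shares its I/R arrays with I/R versus Sham, so that an I/R array far from both groups moves both comparisons in opposite directions, and the values of both are set side by side here without a test of their relation.

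The DEGs that were higher in DHI were led by Robo3, at 3.38 ± 1.08 in DHI versus I/R beside -4.18 in I/R versus Sham. The DHI and I/R arrays of Robo3 just missed each other, with DHI 1 at -4.88 and I/R 2 at -4.89. The dimmer Robo3 probe, close to background in I/R, gave 1.03 ± 0.36. For Efna5 the bound came to 2.39-fold higher in DHI than in I/R. DHI 1 (-9.34) was not above background and entered at its measured signal, so this is no firm bound. Slit3 (1.52 ± 0.55) and Robo2 (0.88 ± 0.35) were higher too, beside -1.73 and -1.31 in I/R versus Sham. Slit2 was no DEG (0.68 ± 0.33).

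Among the Eph receptors, 6 of 11 were higher in DHI and none was lower, against 11.5% and 10.5% of all probes. Epha4 was 2.06 ± 0.62 higher, Ephb6 1.58 ± 0.67, Epha7 1.53 ± 0.56, Epha5 1.22 ± 0.45, Ephb3 1.20 ± 0.51, and Epha3 0.97 ± 0.34, all as log2 fold changes. The Epha3 arrays did not overlap, although by a small margin, with DHI 1 at -4.64 and I/R 3 at -4.73. Ephb1, too, had DHI arrays above all I/R arrays (0.48 ± 0.14), but below an FC of 1.5. Epha4 was the most stable of these calls, lost only in the methods' t-test among 20 other settings, and the call of Ephb3 was lost in 12 of 20, of Epha3 in 5, and of the other 3 in 7 to 10.

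Of the semaphorins, Sema6b (1.55 ± 0.58), Sema5a (1.19 ± 0.45), Sema3f (1.13 ± 0.37), Sema7a (1.13 ± 0.46), and Sema3e (1.00 ± 0.43) were higher in DHI. Sema5a, a transmembrane semaphorin with thrombospondin repeats, was no DEG in I/R versus Sham. Its levels were -1.64, -1.47, and -1.49 in Sham, -2.27, -2.24, and -2.28 in I/R, and -2.27, -0.31, and -0.62 in DHI, with DHI 2 and DHI 3 above all other arrays and DHI 1 within the I/R range. The dimmer Sema5a probe gave 0.69 ± 0.32 in DHI versus I/R and was no DEG (unadjusted p of limma 0.0630). Sema3a, with the largest fall of its class in I/R, had 1.22 ± 0.56 in DHI versus I/R and was no DEG.

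The 2 genes lower in DHI than in I/R were Plxnb2 (-1.42 ± 0.50) and its ligand Sema4c (-0.88 ± 0.37). For both genes the DHI and I/R arrays overlapped through DHI 1. Nrp1 (-0.46 ± 0.37), Efnb1 (-0.82 ± 0.38), Efna4 (-0.33 ± 0.17), and Sema3b (-0.62 ± 0.42), which had risen in I/R, were no DEGs here. None of the netrins and their receptors was a DEG, with log2 fold changes from 0.30 (Ntn5) to 1.09 (Dcc).

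Each DHI array was placed between the mean of Sham (0) and the mean of I/R (1) for the 33 DEGs of I/R versus Sham. The median position was 0.853 for DHI 1, -0.0696 for DHI 2, and 0.19 for DHI 3. DHI 1 was nearer to I/R for 31 of 33 genes, DHI 2 nearer to Sham for 32, and DHI 3 nearer to Sham for 30. DHI 1 had the highest position of the DHI arrays for 32 of the 33 genes, Sema4a being the exception. For Plxnb3, DHI 1 (1.524) lay beyond the I/R mean and DHI 3 (1.057) was closer to it. The positions are a description without a test.

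**Figure D3:**
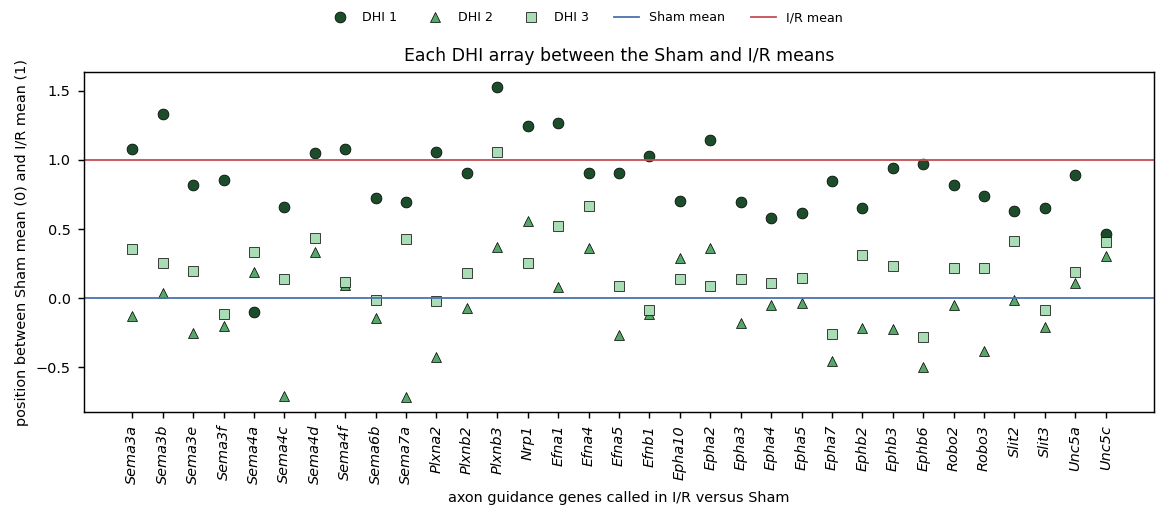
Position of each DHI array between the Sham mean (0, blue line) and the I/R mean (1, red line) for the 33 axon guidance genes that were DEGs in I/R versus Sham, ordered by class. DHI 1 (dark circles) has a median of 0.853, DHI 2 (triangles) of -0.0696, and DHI 3 (light squares) of 0.19.

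The same order was seen in some marker lists and not in others. The median log2 difference of the neuronal markers from the Sham mean was -3.56, -3.29, and -1.11 on the I/R arrays and -1.98, 0.24, and -0.36 on the DHI arrays. For the 11 Eph receptors tested it was -1.98, -1.83, and -0.84 in I/R and -0.87, 0.20, and -0.11 in DHI, and for the 7 Slits and Robos -1.88, -1.21, and -0.53 in I/R and -0.65, 0.31, and 0.15 in DHI. Markers of microglia and macrophages were at 4.30, 4.05, and 3.00 in I/R and at 3.74, 0.11, and 0.67 in DHI. Oligodendrocyte markers had another order, with 0.67, 0.15, and -0.52 in I/R and 0.50, 0.37, and 0.89 in DHI. So did choroid plexus markers, with 0.73, 3.02, and 2.95 in I/R and 4.985, 0.35, and 3.38 in DHI. In DHI versus I/R, 9 of 12 neuronal markers were higher, and 11 of 13 markers of microglia and macrophages, 7 of 8 of reactive astrocytes, and 7 of 8 of fibroblasts and meninges were lower. Over all probes 11.5% were higher and 10.5% lower. All 4 red blood cell markers were higher, with arrays apart, and 3 of 6 T cell markers were lower. Of the other lists, 2 of 9 oligodendrocyte and 1 of 9 striatal markers were higher, and 1 of 9 astrocyte and 1 of 9 endothelial markers were lower. Among 7 oligodendrocyte precursor markers 1 was higher and 1 lower. None of the 7 choroid plexus markers tested was a DEG, nor any of the 7 pericyte and smooth muscle markers. None of the marker calls in this comparison passed the adjusted p.

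**Figure D4:**
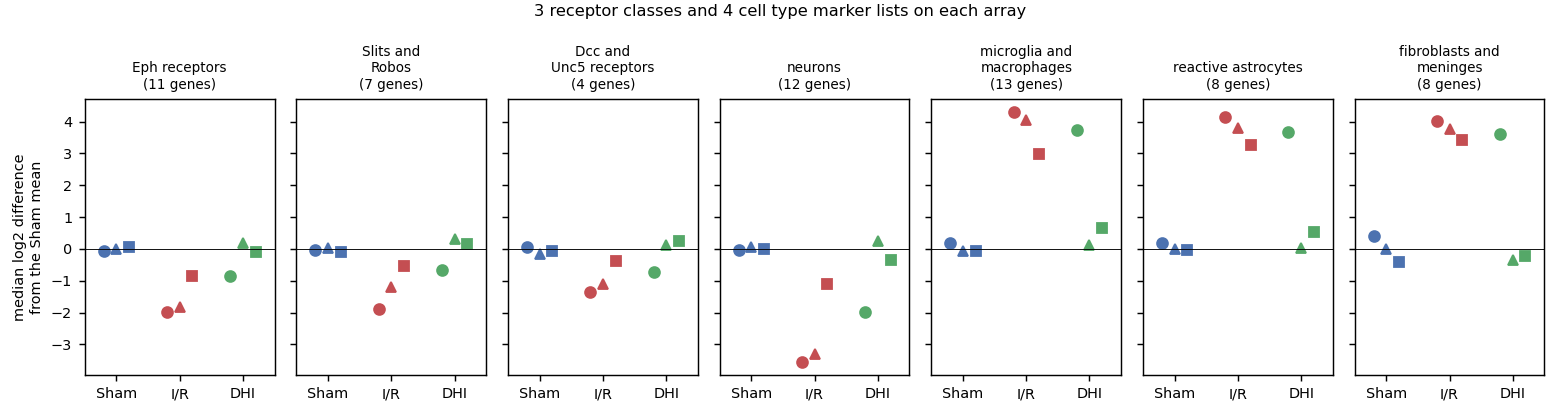
Median log2 difference from the Sham mean over the tested genes of 3 guidance classes and 4 cell type marker lists, for each array of Sham (blue), I/R (red), and DHI (green), with circles, triangles, and squares for replicates 1, 2, and 3. The 3 guidance classes and the neuronal markers are lowest on I/R 1 and I/R 2, and DHI 1 is the lowest DHI array in each. The other 3 lists are high on all I/R arrays and on DHI 1.

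In DHI versus Sham, 3 of 56 guidance genes were DEGs, all higher in DHI, against 3.58% of all probes (2.52% higher and 1.06% lower). The arrays of both groups were apart for 7 of the 56 genes, against 18.6% of all probes. The 3 DEGs were Nrp1 (1.01 ± 0.37), Plxnb3 (0.73 ± 0.26), and Efna4 (0.60 ± 0.17). With limma 0 genes passed the adjusted p (0.709 for each), as did 0% of all probes, and 5 genes had an unadjusted p under 0.05. The methods' t-test called 1. The median was -0.06 over the guidance genes and 0.02 over all probes. Leaving out DHI 1 or Sham 3 gave 6 DEGs, DHI 2 gave 9, I/R 3 gave 4, Sham 1 gave 1, and Sham 2 gave 0. Over all probes these settings gave 832, 557, 2519, 1086, 913, and 344 DEGs in the same order, beside 849 in the main fit. Without scaling (median of all probes -0.25) the split was 0 higher and 2 lower. For Nrp1 and Efna4 all DHI arrays were above all Sham arrays, whereas for Plxnb3 DHI 2 (-1.84) was below Sham 3 (-1.80).

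Genes that act with the guidance receptors were counted in lists set down by function. Of 49 intracellular effectors tested, 13 were higher and 15 lower in I/R versus Sham (11 and 10 with the adjusted p), against 20.8% higher and 22.3% lower over all probes (16.4% and 15.1% with the adjusted p). Rac2, a GTPase of blood cells (4.63 ± 0.94), and Fes, a kinase that can act in plexin signaling (4.15 ± 0.86), were higher, and Tiam1, an activator of Rac (-3.47 ± 0.83), was lower. In DHI versus I/R the values of these 3 genes were -2.66, -2.52, and 2.35, and 10 of the effectors were higher and 6 lower, against 11.5% and 10.5% of all probes. No gene of the related lists passed the adjusted p in that comparison.

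Of 19 other guidance cues and receptors tested, 4 were higher and 7 lower in I/R (4 and 2 with the adjusted p), against the same 20.8% and 22.3% of all probes, with Cxcr4, a chemokine receptor, at 2.96 ± 0.69, Lrrc4c, a netrin-G ligand, at -2.20 ± 0.64, and Flrt1, an adhesion protein, at -2.04 ± 0.72. Among 11 co-receptors and adhesion molecules of axons, 3 were higher and 5 lower (2 and 2 with the adjusted p), led by Cntn4, a contactin (-2.89 ± 0.65), Adam17, a sheddase (1.87 ± 0.44), and Itgb1, integrin beta-1 (1.64 ± 0.44). Together 72.7% of this list were DEGs, beside 43.1% of all probes. In DHI versus I/R, 2 of these cues were higher and 3 lower, together 26.3% beside 21.9% of all probes. Of these co-receptors and adhesion molecules, 2 were higher and 3 lower in that comparison, together 45.5%.

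Of 9 outgrowth inhibitors of myelin and their receptors, 5 were lower and 1 higher in I/R (4 and 0 with the adjusted p), against 22.3% lower and 20.8% higher over all probes. Rtn4r, the Nogo receptor (-2.81 ± 0.76), and its partner Lingo1 (-2.79 ± 0.74) were lower, and Ngfr, the p75 neurotrophin receptor, was higher (2.46 ± 0.90) with overlapping arrays. Of 13 neuronal genes associated with regeneration, 5 were lower and 1 higher in I/R (3 and 0 with the adjusted p). Gap43, a growth cone protein (-1.78 ± 0.61), Tubb3, neuronal tubulin (-1.73 ± 0.56), and Stmn2, a regulator of microtubules (-1.66 ± 0.53), were lower, and the last 2 also stand in the list of neuronal markers. In DHI versus I/R, Rtn4r (2.19 ± 0.76) and Lingo1 (2.27 ± 0.74) were the 2 myelin inhibitor genes that were higher and none was lower, a share of 22.2% beside 21.9% of all probes, and 3 of the 13 regeneration genes (23.1%) were higher.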

How the data were processed

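RNA of 9 rat brains (3 Sham, 3 I/R, 3 DHI) was hybridized to one-color Agilent arrays. The authors deposited the intensity of each spot as given by Agilent Feature Extraction 10.7.1.1, corrected for background and not scaled between arrays, and a table for the whole series of log2 values, which was used as an alternative. Every column of values was used for its own sample, and 0 were set aside. The labels do not say how the animals were paired with replicate numbers, and p-values measure the spread between these 9 samples. The number of arrays limits the precision.

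Control spots and spots that the software marked as outliers (392 to 725 an array) were left out. Log2 intensities were averaged over the spots of a probe, and the 75th percentile of each array was subtracted. Of 30367 probes, the 23747 that each of the 3 arrays of some group measured well above background were tested with limma 3.58.1 (R 4.3.3, with data.table in version 1.17.8), in one model over the 9 arrays with Benjamini-Hochberg adjustment. Where no array of a group measured a gene well above background, a bound is given, from the lowest signal well above background on each array. The steps were tested on simulated data.

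The genes, lists, and thresholds were chosen with earlier results of these data known. The text names guidance genes that passed FC and p in a comparison, gives every array for up to 4 such genes a class and for those whose arrays were apart in DHI versus I/R, and names up to 3 genes of each related list. Sema5a, Epha6, and other genes that passed no threshold were named after their values were seen. Of the 60 genes, 51 matched the RefSeq gene table by accession, all 51 with the same symbol, and 9 keep the symbol of the file. The alternatives were quantile normalization, no scaling, normexp (offset 50), the series table, no filter, probes above background on all 9 arrays, array weights, a replicate block, a fit of only the groups compared, the mean over probes, the methods' t-test, and leaving out each array.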

Additional observations from a re-analysis of the deposited data

How the results depend on the processing

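No guidance gene named as a DEG changed direction under any alternative. In I/R versus Sham the main 33 DEGs ranged from 29 to 39 over the alternatives that used all arrays, and from 21 to 37 when 1 array was left out. The 21 that passed the adjusted p became 0 without scaling, 32 with only the groups compared (a fit within 1 slide), 39 with array weights, and 13 with the methods' t-test, and ranged from 0 to 34 when 1 array was left out. In DHI versus I/R the main 17 DEGs became 11 without scaling, 5 with only the groups compared, 39 with array weights, and 0 with the methods' t-test, and ranged from 2 to 31 when 1 array was left out. With the adjusted p the count of 0 became 39 with array weights and ranged from 0 to 27 when 1 array was left out. The array weights were 0.0936 for DHI 1 and 0.189 for I/R 3, so that this setting nearly leaves out both arrays. In DHI versus Sham the 3 DEGs became 8 with array weights and 1 with the methods' t-test and ranged from 0 to 9 when 1 array was left out. With the adjusted p, 0 became 7 with array weights and remained 0 without each single array. The counts over all probes moved with these settings too. With array weights 13082, 11904, and 3484 of 23747 probes were DEGs in the 3 comparisons in this order, against 10241, 5211, and 849. With the methods' t-test 9461, 469, and 448 were. Without scaling, 1 probe passed the adjusted p in I/R versus Sham, against 7471. Where the cause of a change is not in the construction of the setting, the cause was not tested.

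The replicate number as a block gave 31 DEGs in I/R versus Sham (26 with the adjusted p), 18 when DHI was compared with I/R (0), and 3 for DHI against Sham (0). Over the 9 pairs of arrays with the same number, the correlation of their deviations ran from -0.341 (I/R 2 and DHI 2) to 0.476 (I/R 1 and DHI 1) and was positive for 7, and not every array correlated best with its own number (Sham 1 and I/R 2, 0.364). The numbers were not taken to pair the arrays. Of the single genes, 68 of 659 alternative fits in I/R versus Sham, 120 of 339 in DHI versus I/R, and 17 of 60 in DHI versus Sham lost the call in the same direction. The signal of Efna5 on the I/R arrays allows only a bound.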
